A study of Homo sapiens with 15 samples.

Results

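A group of 195 genes had fewer transcripts in condensate pellets formed with double-stranded RNA (dsRNA) than in mock and in silvestrol pellets in each of 3 same-numbered replicates. They were chosen from 12175 genes with a mean of at least 5 CPM (counts per 1000000 counts of the library) in mock pellets, of 57500 genes in the files, and made up 1.60% of the 12175 eligible genes. A gene was a member if the log2 ratios of dsRNA over mock CPM and of dsRNA over silvestrol CPM were both under -0.2 in every pair. G3BP1, which encodes the nucleator of stress granules, also met the thresholds and was left out. These ratios chose the members and are described without a test, and both sets of ratios share the same dsRNA libraries. The mirrored rule, with both ratios over the same size in the upward direction in every pair, found 1 gene, TRPV1, at 5.20 CPM in mock pellets.

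The extract was made from the cytosol of U2OS cells, a human osteosarcoma line, and kept for 2 h without addition (mock), with dsRNA (250 nM), with silvestrol (2 µg/ml), which blocks the translation initiation helicase eIF4A, or with the molecular crowder PEG (1%). RNA with poly(A) tails was sequenced from the pelleted condensates of these 4 reactions and from input, the extract before pelleting, with 3 replicates in each of the 5 groups. The labels give every library as wild type U2OS, whereas the paper describes pelleted condensates of a YFP-G3BP1 line, a difference the sources used here do not settle. No unpelleted extract incubated with dsRNA was analysed here, so that less of a transcript in the pellet and less of it in the whole reaction cannot be told apart. CPM are shares of a library and carry no absolute amount of RNA. Total counts per library ranged from 15341973 to 25675182 in the PEG group and from 23101982 to 46939993 in the others. Of 8 markers of U2OS cells, 7 were over 1 CPM in every library, and 7 of 8 markers of Huh7 hepatoma cells were under 1 CPM in every library.

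Stress granules are cytoplasmic condensates of untranslated mRNAs and RNA-binding proteins that form when translation initiation stalls. Long dsRNA binds and activates PKR, the kinase encoded by EIF2AK2, which phosphorylates the initiation factor eIF2α and so shuts off initiation. Alu elements are primate-specific repeats that are frequent in the 3′ untranslated regions (UTRs) of human mRNAs, and a pair of them in opposite orientation can fold back into dsRNA within 1 transcript.

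The word of 11 bases that members held most often beyond other eligible genes was a word of the Alu consensus. Words were ranked after the members' values were known, so that this is a description of these genes. The 11-base word TGTAATCCCAG stood in the main transcript (that with the longest coding sequence) of 57 of 195 members, 29.2%, and of 9.16% of the 11960 other eligible genes with a transcript sequence. Its reverse complement, CTGGGATTACA, stood in 27.2% of members and 9.87% of the others. Either orientation was found in 78 members, 40%, against 16.4% of the others. Both orientations stood in the same transcript in 32 members, 16.4%, against 2.61% of the others. In these 32 members the words had 116 sites, of which 106 were in 3′ UTRs, 4 in 5′ UTRs, 0 in coding sequence and 6 in noncoding transcripts. Nearest sites of opposite orientation lay a median of 628.5 nt apart (85 to 2916 nt), and a 30-base window around one matched the reverse complement of the other at a median of 25 of 30 bases, 11 of which are the word itself and match by construction. A match of these letters is not shown to be a structure or a binding site. Among annotated transcripts of equal coding length, the longest was taken as the main transcript. Which annotated transcript was present in the pellets was not tested.

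Long transcripts hold more words of any kind, so that the shares were also taken within quintiles (groups of equal size) of the eligible genes by transcript length. In the longest quintile, from 5512 nt, 11 of 29 members (37.9%) and 9.58% of other genes held both orientations. The fourth quintile gave 25.5% of members and 2.23% of others, and the second quintile 10.0% and 0.460%. In the shortest quintile, up to 1780 nt, 0 of 34 members held both, which allows a share of up to 8.82% by a floor of 3 counts. Within the second quintile by GC content, which held the most members, the shares were 15 of 98 members (15.3%) and 3.86% of other genes. Members thus had the higher share within each length quintile from the second upward and within each of the 3 lower GC quintiles. The longest quintile ran to 91667 nt, whereas the longest main transcript of a member had 11331 nt, so that lengths there were not alike. Members also had longer 3′ UTRs (median 1368 nt against 1058 nt), where most sites lay. Shares at equal 3′ UTR length, or at equal length and GC content at once, were not tested.

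**Figure D1:**
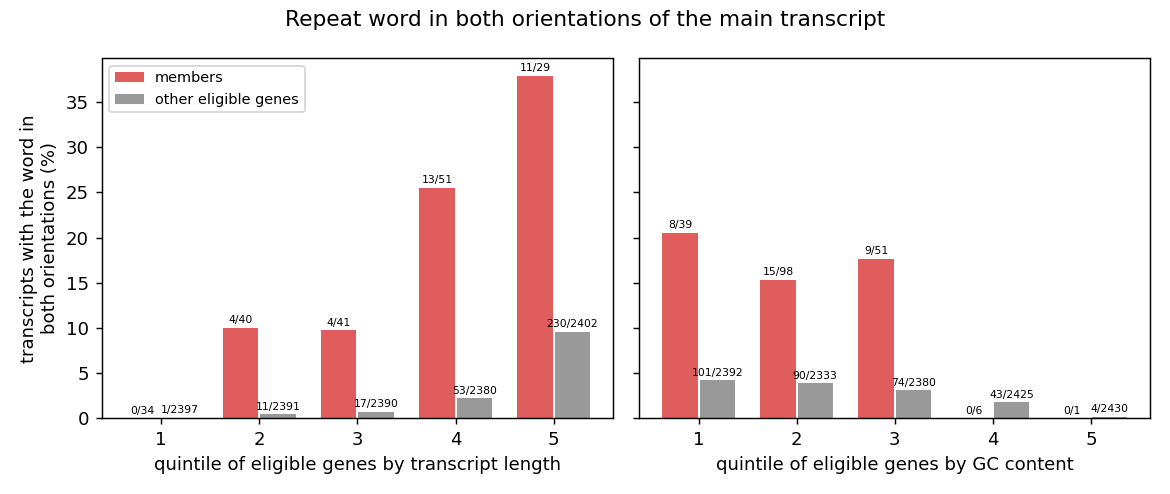
Percentage of main transcripts that held the 11-base word in both orientations (y axis) in quintiles of the eligible genes by transcript length (left) and by GC content (right), with members in red, other eligible genes in grey and numbers of transcripts above the bars. In the longest quintile, 37.9% of members and 9.58% of other genes held both orientations.

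Seen from the side of the word, 344 eligible genes held both orientations and 9.30% of them were members. Members made up 2.71% of the 1698 genes with 1 orientation and 1.16% of the 10113 genes with neither. The mean of the 6 log2 ratios was under 0 for 70.3%, 52.1% and 42.9% of these 3 classes. Most genes with both orientations were therefore not members, and their median log2 ratio was -0.09 for dsRNA over mock and -0.04 for dsRNA over silvestrol. The 3 classes, members included, also differed in median transcript length (7223, 4368 and 2904 nt) and GC content (44.2%, 45.7% and 50.7%). The part of these features in the dsRNA ratios was not tested. Within the members the word did not mark the lowest ratios: of the 65 members with the lowest means, 12.3% held both orientations, against 20.0% and 16.9% in the other tertiles. The median transcript lengths of these tertiles were 2618, 3736 and 3737 nt, and shares at equal length were not tested.

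The sizes of the ratios that chose the members were mostly moderate. The median log2 ratio of dsRNA over mock was -0.50, -0.52 and -0.41 in replicates 1, 2 and 3, and that of dsRNA over silvestrol -0.41, -0.49 and -0.41. The medians of all eligible genes lay between -0.01 and 0.02 in these pairs. The mean of the 6 ratios was under -1 for 7 members, between -1 and -0.5 for 69 and above -0.5 for 119. Just inside the threshold stood CWF19L1, PGAM5 and MCFD2, whose highest ratios were -0.200071, -0.200302 and -0.20096. Just outside stood ZNF432, ATP6V1B2 and PPP4R1, at -0.198, -0.198 and -0.197.

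**Figure D2:**
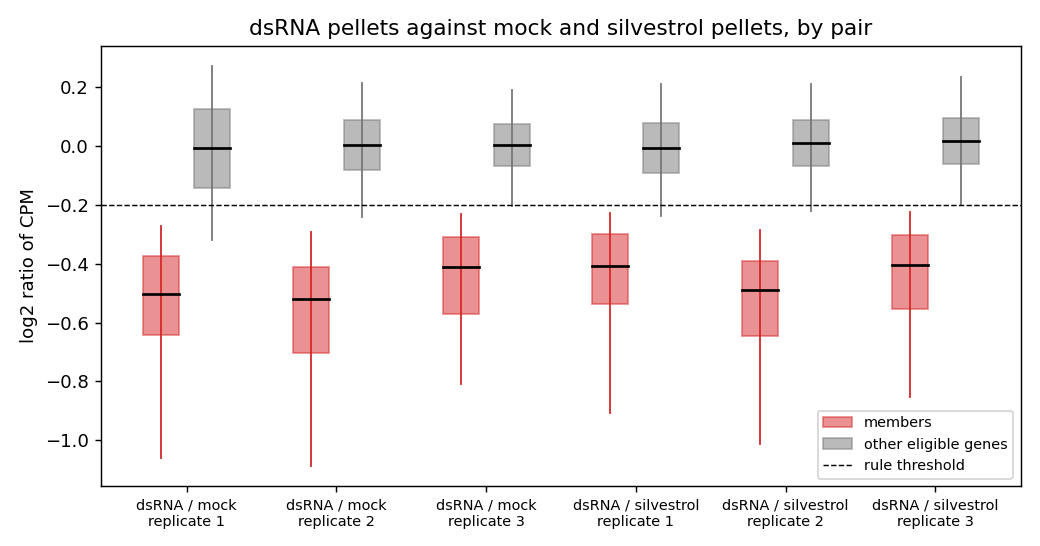
Log2 ratio of CPM in dsRNA pellets over mock or silvestrol pellets (y axis) in each same-numbered pair (x axis), for the 195 members in red and other eligible genes in grey. Boxes span the quartiles, black lines are medians, thin lines run from the 5th to the 95th percentile, and the dashed line is the threshold of -0.2 that chose the members, whose medians lie between -0.52 and -0.41.

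All 3 dsRNA libraries were below all 3 mock libraries in 169 members and below all 3 silvestrol libraries in 168, beside 5.14% and 3.76% of the 16612 genes kept for tests. With edgeR's quasi-likelihood test and Benjamini-Hochberg adjustment, 0 genes of 16612 (0%) passed an adjusted p of 0.05 in dsRNA against mock and 0 in dsRNA against silvestrol. At an unadjusted p under 0.05 these tests held 374 genes, 167 of them members, and 330 genes, 169 of them members. DESeq2 called 65 genes lower in each comparison (0.391%), 61 and 60 of them members. With the replicate number as a block, edgeR called 441 genes lower than in mock pellets (2.65%), 192 of them members, and 25 higher (0.15%), none a member. Against silvestrol pellets it called 414 lower (2.49%), 191 of them members, and 39 higher (0.235%), again none a member. The rule used these contrasts in these pairs, so that the members' share of all these counts was set by their choice and nothing is read from it.

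The ratios were also taken in a pair whose ratios had no part in the choice, although the level of 5 CPM was still the mean of all 3 mock libraries. Of 272 genes chosen by the rule on pairs 2 and 3, 195 (71.7%) had both ratios under -0.2 in pair 1, against 4.91% of other eligible genes. Of 227 chosen on pairs 1 and 3, 195 (85.9%) did so in pair 2, against 3.41%. Of 302 chosen on pairs 1 and 2, 195 (64.6%) did so in pair 3, against 1.99%. The median log2 ratio of dsRNA over mock in the pair left out was -0.42, -0.46 and -0.31 for pairs 1, 2 and 3. The 195 genes were in each case the members themselves, by the definition of the rule. These shares were descriptions of the same reactions, in which mock and silvestrol share the dsRNA libraries, and are no test of the rule.

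The lowest mean ratio was that of KRT10 (ENSG00000186395, chr17:40818117-40822595), which encodes a type I keratin. Its CPM were 157, 191 and 138 in mock, 65.0, 50.8 and 57.7 in dsRNA and 121, 176 and 145 in silvestrol pellets. The dsRNA libraries were the lowest of these 9, with no overlap, and also below the input libraries at 152, 79.7 and 87.2 CPM. Its exons overlap those of another gene, and reads of such genes cannot be told apart here, since the strand setting of the counting is not given in the sources used here.

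Next in order were RPL9 (ENSG00000163682, chr4:39454124-39458948), a protein of the large ribosomal subunit, and its copy RPL9P9, which are nearly identical in sequence, so that their reads may have been shared between them. RPL9 was at 862, 1243 and 938 CPM in mock, 305, 491 and 453 in dsRNA and 676, 1198 and 962 in silvestrol pellets. RPL9P9 was at 96.0, 151 and 129 CPM in mock and 34.0, 47.2 and 55.7 in dsRNA pellets. Both were lower in every dsRNA library than in any mock or silvestrol library. The other ribosomal protein gene among the members, RPS23 of the small subunit, had 896, 1322 and 1114 CPM in mock and 486, 854 and 804 in dsRNA pellets, where its libraries lay below all mock libraries but overlapped those of silvestrol at 691, 1280 and 1121 CPM. These 2 were the members among 83 eligible genes of cytosolic ribosomal proteins (2.41%), whose median log2 ratio was -0.08 over mock and 0.06 over silvestrol.

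PSMA5 (ENSG00000143106, chr1:109399031-109426427), an alpha subunit of the proteasome core, was at 299, 263 and 185 CPM in mock, 130, 94.9 and 94.3 in dsRNA and 225, 228 and 179 in silvestrol pellets. It was the single member among 46 eligible proteasome subunit genes (2.17%, beside 1.60% of all eligible genes). COPB1 (ENSG00000129083, chr11:14443440-14500027), the beta subunit of the COPI coat of Golgi vesicles, was at 146, 133 and 109 CPM in mock and at 61.4, 60.3 and 64.4 in dsRNA pellets. Neither gene's dsRNA libraries overlapped its mock or silvestrol libraries. The other members with the lowest mean ratios among those with at least 20 CPM in mock pellets were C8orf76, GYG1, which primes glycogen synthesis, CCNG1, a cyclin induced by p53, DSN1 of the kinetochore, ETFA, which passes electrons from fatty acid oxidation to the respiratory chain, the protein kinase PRKD3 and COPG2, another COPI subunit. Their mean log2 ratios lay between -1.09 and -0.87.

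Other abundant members, named for their input level, were CALM2, which encodes calmodulin, the cyclin gene CCNI, PRR11 and SLC25A3, the mitochondrial phosphate carrier. CALM2 was at 971, 807 and 622 CPM in mock and 517, 414 and 433 in dsRNA pellets. SLC25A3 was at 367, 461 and 382 CPM in mock and 275, 308 and 314 in dsRNA pellets. The dsRNA libraries of both were below all mock libraries.

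By biotype, 182 members were protein coding and 13 were antisense, divergent or other noncoding transcripts and pseudogenes. Of the members, 99 (50.8%) had exons that overlap another gene, near the 47.7% of all eligible genes. Members that overlap each other were HBP1 with COG5 and PRR11 with PRR11-AS1, and near-identical copies were METTL2A with METTL2B, WASHC2A with WASHC2C, STAG3L2 with STAG3L3, and ZNF587 with ZNF587B.

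Functions were taken from 26 lists of genes, which held 42 of the members. The largest count was that of zinc finger genes named ZNF, with 13 of 322 eligible genes (4.04%), beside 1.60% of all eligible genes. Ubiquitin-specific proteases had 3 of 46 (6.52%), namely USP47, USP28 and USP12, and DNA repair and replication genes 5 of 104 (4.81%), namely RPA1, MCM6, MCM10, POLH and ORC5. The lists as a whole did not lie low: their median log2 ratios of dsRNA over mock were 0.00, 0.03 and -0.01, beside 0.00 for all eligible genes. No member was found among 94 RNA decay factors, 82 kinesins, dyneins and myosins, 61 extracellular matrix and integrin genes, 59 heat shock and DNAJ genes, 46 RAB GTPases, 23 cohesin, condensin and SMC genes and 17 glycolytic enzymes. The other lists held 1 or 2 members each.

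USP28, a deubiquitinase of p53 and MYC pathways, was at 83.6, 78.8 and 73.3 CPM in mock, 56.2, 51.8 and 56.0 in dsRNA and 80.9, 73.9 and 73.9 in silvestrol pellets. ORC5, a subunit of the origin recognition complex, is described outside the rule for named genes. It was at 23.5, 21.5 and 14.4 CPM in mock and 10.3, 11 and 8.22 in dsRNA pellets. In both genes the dsRNA libraries lay below every mock and silvestrol library.

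Of 27 eligible genes of the dsRNA response, 1 was a member (3.70%, beside 1.60% of all eligible genes), EIF2AK2 (ENSG00000055332, chr2:37099210-37157065). It was at 139, 138 and 134 CPM in mock, 97.6, 91.5 and 92.1 in dsRNA, 135, 127 and 123 in silvestrol and 166, 129 and 118 in input. All 3 dsRNA libraries were below the 9 others. Of 64 stress granule protein genes, counted without G3BP1, which also met the thresholds, 1 was a member (1.56%, beside 1.60% of all eligible genes). This member was G3BP2 (ENSG00000138757, chr4:75642782-75724525), the paralogue of G3BP1. It was at 165, 152 and 140 CPM in mock, 121, 115 and 115 in dsRNA and 156, 142 and 134 in silvestrol pellets, and the dsRNA libraries did not overlap the others. The medians of the lists were -0.01 for the dsRNA response and -0.01 for stress granule proteins.

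A few complexes were noted after the members' values were seen, so that nothing is read from their counts. Of 22 eligible COPI and COPII coat genes, which build vesicles between the endoplasmic reticulum and the Golgi, 7 were members (31.8%, beside 1.60% of all eligible genes). These were COPB1, COPB2, COPG2, SEC23B, SEC24A, SAR1A and SEC23IP. The median log2 ratio of the 22 genes was -0.08 over mock and -0.06 over silvestrol. SEC23B, of the inner COPII coat, was at 112, 118 and 93.9 CPM in mock and 68.3, 56.4 and 52.4 in dsRNA pellets. All 3 ribonucleotide reductase genes, RRM1, RRM2 and RRM2B, which supply deoxyribonucleotides, were members. RRM1 was at 139, 105 and 93.1 CPM in mock and 82.0, 66.6 and 63.4 in dsRNA pellets, and RRM2 at 299, 194 and 178 in mock and 225, 142 and 143 in dsRNA pellets. The RRM2 libraries overlapped between the groups, as replicate 1 was high in both, while those of RRM1 did not.

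Members were of intermediate to low GC content. The median GC content of their main transcripts was 44.3% (quartiles 42.0% to 47.2%), against 49.6% (42.8% to 57.5%) for other eligible genes. Of the members, 98 lay in the second quintile of eligible genes by GC content, from 41.6% to 46.6%, where they made up 4.03% of genes. The lowest quintile held 39, the middle 51, the next 6 and the highest 1. The members were thus not the most AU-rich transcripts, and their lower decile of GC content, 39.2%, was close to that of other genes, 39.0%. UU dinucleotides numbered 8.56 per 100 nt in members and 6.84 in other genes (medians), and the pentamer AUUUA, the core of AU-rich elements, 1.39 and 0.942 per kb.

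Length depended on the measure. The union of exons had a median of 4939 nt in members and 5140 nt in other genes, whereas the main transcript had 3437 and 3156 nt. The annotated 3′ UTR of the main transcript was longer in members (median 1368 nt against 1058 nt) and the coding sequence shorter (1310 nt against 1467 nt). Quintiles by transcript length held 34, 40, 41, 51 and 29 members from short to long. Input level differed little, at a median of 43.1 CPM in members and 36.7 CPM in other genes, and quintiles by input level held 34, 33, 42, 39 and 47 members. Among the members, the mean of the 6 ratios had a Spearman correlation of 0.25 with transcript length, 0.04 with GC content and 0.08 with input level (195 genes, which share the same 9 libraries and are not independent replicates). The rule limits the range of these ratios. Over all eligible genes the correlations were 0.10 with transcript length, 0.32 with GC content and -0.06 with input level. With UU dinucleotides the correlation was -0.33 over all eligible genes.

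Against input, members were near neutral in mock and silvestrol pellets and low in dsRNA pellets, which is described only, since these libraries chose the members. Their median log2 ratio over mean input, taken per library, was 0.01 ± 0.12 (SD, n = 3) in mock, -0.05 ± 0.07 in silvestrol and -0.52 ± 0.07 in dsRNA pellets. Other eligible genes had 0.04 ± 0.01, 0.03 ± 0.02 and 0.03 ± 0.03. The members' summed level was 16809 ± 1419 CPM in mock, 16118 ± 951 in silvestrol and 11110 ± 254 in dsRNA pellets. Members came mostly from the middle of the range of mock over input: its quintiles held 9, 57, 71, 40 and 18 members from low to high.

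PEG pellets and input had no part in the choice of members, and their comparison was tested. In PEG pellets 78 of 195 members (40%) were lower than in input and 35 (17.9%) were higher, at an adjusted p under 0.05 with edgeR's quasi-likelihood test and Benjamini-Hochberg adjustment over 16612 genes. Of all genes tested, 25.9% were lower and 25.5% were higher, and of those with at least 5 CPM in mock pellets 32.3% and 26.7%. The median log2 fold change was -0.25 for members, -0.09 for other eligible genes and -0.01 for all genes. The other 82 members did not pass the threshold. The split depends on scaling: by library size alone 119 members were lower and 23 higher, while the median of all genes moved to -0.36, so that changes are given relative to the TMM scale. Of all eligible genes, 50.2% were lower and 15.4% higher on that scale. Without input replicate 1, 78 members (40%) were lower and 54 (27.7%) higher, beside 37.2% and 33.2% of eligible genes.

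**Figure D3:**
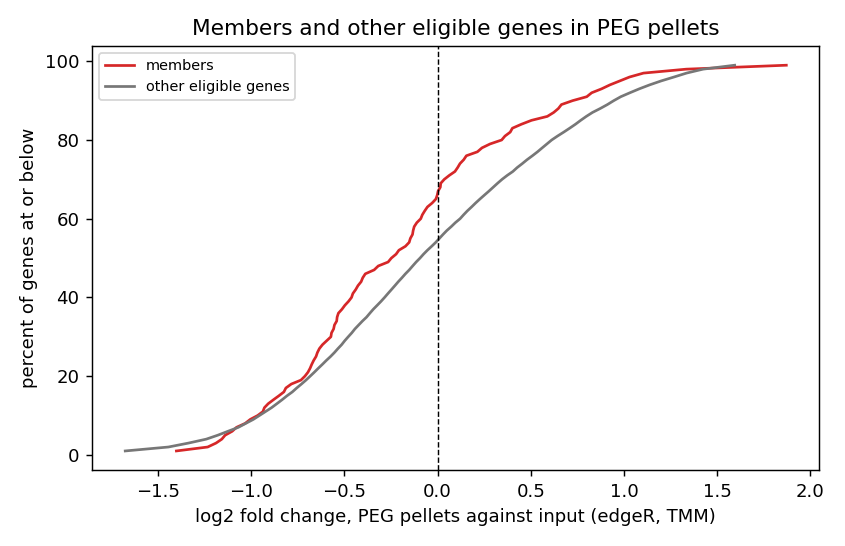
Cumulative percentage of genes (y axis) at or below each log2 fold change in PEG pellets against input (x axis, edgeR with TMM scaling), for members in red and other eligible genes in grey. The median was -0.25 for members and -0.09 for other eligible genes.

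The largest rises in PEG pellets among members with at least 20 CPM in mock pellets were those of RPL9P9, RPL9, RPS23 and MED19, a subunit of the Mediator complex. RPL9 had 634, 681 and 657 CPM in input and 1762, 2067 and 1981 in PEG pellets, which is 1.91 on the log2 scale (standard error 0.15, adjusted p = 0.000217). RPS23 had 706, 1162 and 1138 CPM in input and 2593, 3238 and 2704 in PEG pellets, which is 1.87 on that scale (standard error 0.20, adjusted p = 0.000303). MED19 had 32.2, 31.4 and 33.5 CPM in input and 66.6, 71.8 and 68.9 in PEG pellets (1.44, standard error 0.12, adjusted p = 0.000222). The PEG libraries of all 3 were above their input libraries, with no overlap. Their annotated main transcripts were of 772 nt for RPL9, 3437 nt for RPS23 and 1203 nt for MED19. That of RPS23 included a 3′ UTR of 2754 nt, and which annotated transcript was in the pellets was not tested.

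The largest falls at the same level were those of ACBD7, an acyl-CoA binding protein gene, PRR11-AS1, STAG3L3 and PRKD3. ACBD7 had 24.7, 29.3 and 26.1 CPM in input and 8.15, 4.36 and 4.48 in PEG pellets, a change of -1.92 on the log2 scale (standard error 0.21, adjusted p = 0.000305). PRKD3 had 128, 101 and 98.0 CPM in input and 48.2, 30.3 and 34.2 in PEG pellets (-1.21, standard error 0.19, adjusted p = 0.00124). Neither gene's groups overlapped, and PEG replicate 1 was the highest of the PEG libraries in both. EIF2AK2 fell by 0.91 on the log2 scale (standard error 0.20, adjusted p = 0.00537), G3BP2 by 0.68 (standard error 0.18, adjusted p = 0.0111) and USP28 by 1.07 (standard error 0.17, adjusted p = 0.00105).

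By the size of the dsRNA ratios, 17 of the 65 members in the tertile with the lowest means were lower in PEG pellets than in input (26.2%) and 22 were higher (33.8%), beside 32.1% and 26.9% of other eligible genes. The middle tertile had 30 lower and 5 higher, and the last tertile 31 and 8. The median transcript length of these tertiles was 2618, 3736 and 3737 nt, and its part in the PEG counts was not tested. KRT10 rose by 1.16 (standard error 0.27, adjusted p = 0.00699) and PSMA5 by 0.97 (standard error 0.20, adjusted p = 0.00391), while COPB1 stood at 0.08 on this scale (standard error 0.15, adjusted p = 0.689) and CCNG1 fell by 0.55 (standard error 0.13, adjusted p = 0.00828). Of the 32 members with the Alu word in both orientations, 13 were lower (40.6%) and 2 higher (6.25%) in PEG pellets. Of the 46 with 1 orientation, 24 were lower (52.2%) and 5 higher (10.9%). Of the 117 with neither, 41 were lower (35.0%) and 28 higher (23.9%). The shares of lower members had no order by class. Those of higher members rose from both orientations to neither, which was not tested. Over all eligible genes the median log2 ratio of PEG over input CPM was -0.68 with both orientations, -0.58 with 1 and -0.40 with neither. These ratios were not on the TMM scale. The classes had median transcript lengths of 7223, 4368 and 2904 nt and median GC contents of 44.2%, 45.7% and 50.7%. The part of length and GC content in these ratios was not tested. VHL, the tumour suppressor that targets HIF for degradation and holds both orientations, was chosen for mention after its values were seen, at -1.18 (standard error 0.15, adjusted p = 0.000525).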

How the data were processed

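Poly(A)-selected RNA of input extract and of mock, dsRNA, silvestrol and PEG pellets was measured in 3 libraries each. The deposited values are raw counts of reads for each gene, which the authors did not normalise. The submitters' processing notes name Trimmomatic 0.36, STAR 2.5.2b, featureCounts, Subread 1.5.2 and GRCh38, and the annotation release and strand setting are not given in the sources used here. Gene identifiers matched GENCODE 29 for 56898 of 57500 genes, which gave the transcripts, and symbols came from a table of gene names and GENCODE.

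CPM were computed from the file totals. Genes that reached 10 counts in 2 or more replicates of each of the 5 conditions (16612 genes, all 195 members) were tested with edgeR 4.0.16 in R 4.3.3 (quasi-likelihood F test, TMM, 6 libraries per comparison, Benjamini-Hochberg adjustment). Standard errors were derived from the log2 fold change and the F statistic. The study's methods name DESeq2, here an alternative (1.42.0). With 3 libraries against 3, an exact permutation p cannot fall below 0.1. The labels and the study's methods call the replicates biological, and p-values measure the spread between them. On data simulated after PEG against input, the test found 146 of 200 genes given a log2 change of 1, with 9 other calls among 16612 genes. The simulation gave every gene the same dispersion and changed only genes with enough counts. Far fewer genes changed in it than were called in the measured data, so that its rates need not hold for them.

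Replicate numbers in the labels gave the pairing. Deviations from group means of same-numbered libraries correlated at 0.127 to 0.270 in PEG against input, 0.600 to 0.837 in dsRNA against mock and 0.618 to 0.855 in dsRNA against silvestrol. Replicates 2 and 3 also correlated across numbers, at 0.504 and 0.529 in dsRNA against mock and 0.569 and 0.556 in dsRNA against silvestrol. In PEG against input these values were 0.190 and 0.106. Differently numbered pairs with replicate 1 correlated negatively. The replicate block was an alternative. Members, gene lists and tests were chosen with earlier results of these data known, and the coat and ribonucleotide reductase lists and the repeat word after the members' values were seen. Named genes were the 12 members with the lowest mean ratio and at least 20 CPM in mock pellets, the 6 with the highest input CPM, the 4 largest rises and 4 largest falls in PEG against input with at least 20 CPM in mock pellets, those nearest to the threshold, and up to 4 of each function list, with others marked where they occur. Plots were made in Python 3.11.15 with matplotlib 3.10.9. The sequences around the sites of the repeat word and the result of 1 gene list are not reported here.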

Additional observations from a re-analysis of the deposited data

How the results depend on the processing

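A threshold of -0.1 gave 423 members, one of -0.3 gave 95, genes without exon overlap numbered 96 (an alternative added after the data were seen), and the rule on the pairs left when 1 replicate number was left out gave 227 to 302. TMM-scaled totals gave 186, of which 181 were members. In PEG against input, library size only gave 119 members lower and 23 higher, with 50.2% and 15.4% of all eligible genes. With 1 library left out, 66 to 81 members were lower and 28 to 54 higher, the 54 without input replicate 1. With the replicate block, 86 were lower and 37 higher, and with the block and a GC offset 76 and 42. In dsRNA against mock, where edgeR called 0 members, DESeq2 called 61 and the replicate block 192. In dsRNA against silvestrol, where edgeR called 0, DESeq2 called 60 and the block 191. Leaving out 1 library called 0 in both. The difference in median length, members minus other genes, was -201 nt by the union of exons and turned to 281 nt by the main transcript. The cause of these changes was not tested beyond what each setting alters. Both orientations of the Alu word were found in 15.4% to 20.5% of members and 2.60% to 4.83% of other eligible genes over words of 10 to 12 bases and other choices of transcript. Of 37 named members past the threshold in PEG against input, 30 kept the call under all 14 alternatives and 7 lost it in at least 1 of them. COPG2 lost it in 7, ATP5F1A in 5, BBS9 and VPS33A in 4 each, NUP43 and XPO5 in 2 each and CCNG1 in 1, and no direction changed. Every member had at least 100 counts in each mock, dsRNA and silvestrol library. Levels in PEG pellets were low for some members, such as IPO5P1 at 1.83, 1.92 and 2.18 CPM. The part of count noise in ratios near the threshold was not tested.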
